A study of Mus musculus with 16 samples.

Results

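The lysosome and TFEB target genes described here are 34 named genes of the lysosome and of the transcription factors that control it, measured in whole kidneys of mice that lost Hes1 and of their littermates. They were taken by gene symbol from a table of 28971 genes, all 34 had a row, and all 34 were among the 15615 genes with enough counts to test. The subunits of the V-ATPase, the proton pump that acidifies lysosomes, were left out of the set on purpose, because intercalated cells of the collecting duct use the same pump at their surface. Hes1 is a transcriptional repressor downstream of Notch receptors.

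The Hes1 cKO (conditional knockout) mice had Pax8-rtTA and TRE-Cre together with Hes1 f/f, both copies of Hes1 being floxed. Doxycycline turns on Cre in cells with Pax8 promoter activity, which in the kidney are tubule cells. The control mice were labelled as wild type littermates, and whether they carried any of the transgenes or floxed alleles is not stated in these sources. Mice of both groups drank doxycycline (1 mg/mL, with 5% sucrose) for 1 week from 3 weeks of age. Total RNA came from the whole kidney, and 3 Hes1 cKO and 4 control libraries of 150 bp read pairs were used. The numbers Hes1 cKO 1 to 3 and control 1 to 4 only name columns, and nothing ties a column to a titled animal, so p-values measure the spread between these libraries.

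Lysosomes break down proteins, lipids, glycans and whole organelles with acid hydrolases, and their membrane carries heavily glycosylated proteins, transporters and ion channels. TFEB and its relatives TFE3 and MITF are basic helix-loop-helix leucine zipper factors that bind a short E-box sequence, the CLEAR element, near the start of many lysosomal genes. When mTORC1 on the lysosome surface is active it phosphorylates TFEB and keeps it in the cytoplasm, so much of the control of TFEB is not seen in its mRNA. Kidney proximal tubule cells are rich in lysosomes, which digest the protein they take up from the filtrate, and loss of several of these genes causes lysosomal storage disease.

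The core of the CLEAR element was looked for in the RefSeq promoters (GRCm38.p6, 250 bases before to 50 after each start) of the 30 genes of the set that have one in the table, as TCACGTG on either strand. This letter string, which holds the plain E-box CACGTG, was present in the promoters of 10 of the 30 genes, 33.3%, beside 4.29% of 27025 genes with a promoter. The 10 genes were Clcn7, Ctsa, Ctsd, Gaa, Gla, Glb1, Lamp1, Mcoln1, Naglu and Sgsh. The longer palindrome TCACGTGA was in 5 of the 30 (16.7%, beside 1.12% of all genes), and CACGTG alone in 12 (40.0%, beside 8.09%). A match is a string of letters, not a measured binding site. The set was chosen as lysosome and TFEB target genes, so its larger shares are no independent evidence. The 27025 genes were not limited to those tested here.

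The 100 bases before the RefSeq start are printed for 1 membrane protein, 1 chloride transporter, 1 glycosidase, 1 ion channel and 1 cathepsin that hold the string, and for Mcoln3, the gene of the set with the smallest p. They are read on the strand of the gene, with TCACGTG or its reverse complement in capitals, extended to TCACGTGA where the palindrome is complete. The Lamp1 stretch (chr8:13159061-13159160, + strand) holds 4 matches, that of Mcoln1 (chr8:3500419-3500518, + strand) holds 2, and those of Clcn7 (chr17:25133291-25133390, + strand), Glb1 (chr9:114400978-114401077, + strand) and Ctsd (chr7:142387828-142387927, - strand) hold 1 each. The Mcoln3 stretch (chr3:146121691-146121790, + strand) holds none, which says only that these letters are absent from it. GENCODE gene models start earlier than RefSeq for some of these genes, so the Mcoln1 and Glb1 stretches lie partly, and the Ctsd and Mcoln3 stretches wholly, inside the longer GENCODE gene.
Lamp1: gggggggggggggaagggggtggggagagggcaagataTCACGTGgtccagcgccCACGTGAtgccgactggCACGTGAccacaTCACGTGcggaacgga
Clcn7: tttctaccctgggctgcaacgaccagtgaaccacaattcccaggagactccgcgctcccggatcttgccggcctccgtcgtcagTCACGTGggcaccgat
Glb1: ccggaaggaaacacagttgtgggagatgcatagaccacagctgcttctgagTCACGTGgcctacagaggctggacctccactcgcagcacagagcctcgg
Mcoln1: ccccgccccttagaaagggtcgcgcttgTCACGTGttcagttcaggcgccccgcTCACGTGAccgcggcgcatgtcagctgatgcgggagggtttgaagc
Ctsd: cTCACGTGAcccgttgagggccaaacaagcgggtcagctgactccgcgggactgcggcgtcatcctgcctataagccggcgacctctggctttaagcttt
Mcoln3: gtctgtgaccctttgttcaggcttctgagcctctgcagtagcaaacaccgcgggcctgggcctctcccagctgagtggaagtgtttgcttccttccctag

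The libraries held 16973931 to 20420422 counts. Hes1, the targeted gene, was at 19.8, 17.2 and 17.5 CPM (counts scaled to the size of the library) in the Hes1 cKO libraries and at 42.8, 51.0, 67.6 and 60.9 CPM in the control libraries, which is -1.61 as a log2 fold change (SE 0.16; adjusted p = 0.00357 by edgeR's quasi-likelihood test). Cell type markers differed between the groups. All 8 intercalated cell markers were fitted higher, 6 at an edgeR adjusted p under 0.05, beside 0.32% of all tested genes. Their summed level was 1117 to 1243 CPM in Hes1 cKO and 392 to 498 CPM in control. All 5 tested principal cell markers were fitted lower, with a median log2 fold change of -0.53. Of these, 4 had an unadjusted edgeR p under 0.05, and 1, Hsd11b2, an adjusted p under 0.05, beside 0.0192% of all tested genes. Xist was at 342 CPM in Hes1 cKO 3, at 333 and 367 CPM in control 3 and 4, and at most 0.371 CPM in the other libraries. Adrenal genes summed to 872 CPM in Hes1 cKO 3 and 635 CPM in control 1, against 2.62 to 169 CPM in the others. In whole-kidney RNA, fewer cells of a type and less RNA per cell cannot be told apart.

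None of the 34 lysosome and TFEB target genes passed the test between Hes1 cKO and control at an adjusted p under 0.05, adjusted over all 15615 tested genes by the Benjamini-Hochberg method. Across all tested genes, 53 were called, which is 0.339%, with 50 (0.32%) higher and 3 (0.0192%) lower in the knockout. At an unadjusted p under 0.05 the set held 1 gene, Mcoln3, a cation channel of endosomes and lysosomes, and that is 2.94% of the set against 5.95% of all tested genes (3.34% higher, 2.61% lower). DESeq2 and limma-voom, run on the same counts, also called none of the 34, while calling 0.833% and 0.327% of all tested genes. The fitted log2 fold changes of the 34 had a median of -0.042, and 13 were above 0 and 21 below. With 1 library left out, 10 to 18 of the 34 were above 0, with 18 above 0 without Hes1 cKO 3 and 17 without control 1. Over all tested genes the median was -0.0064 and 48.4% were above 0.

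The sizes of the differences were small beside the spread of all genes. In the plot of fitted log2 fold changes, 23 of the 34 genes lay within 0.1 of 0 and 31 within 0.2, and the whole set ran from -0.22 (Lipa) to 0.55 (Mcoln3). The 5th and 95th percentiles of all tested genes were at -0.42 and 0.40. All tested genes include genes with low counts and were not matched to the 34 by level, so level may add to this contrast. The standard errors ran from 0.072 (Mcoln1) to 0.20 (Mitf), with a median of 0.10. For 33 of the 34 genes the 95% interval of the fold change stayed within 1.5-fold in either direction, and the exception was Mcoln3. A p above the threshold does not show that a gene was the same in both groups, and these intervals give the sizes that the libraries still allow.

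**Figure D1:**
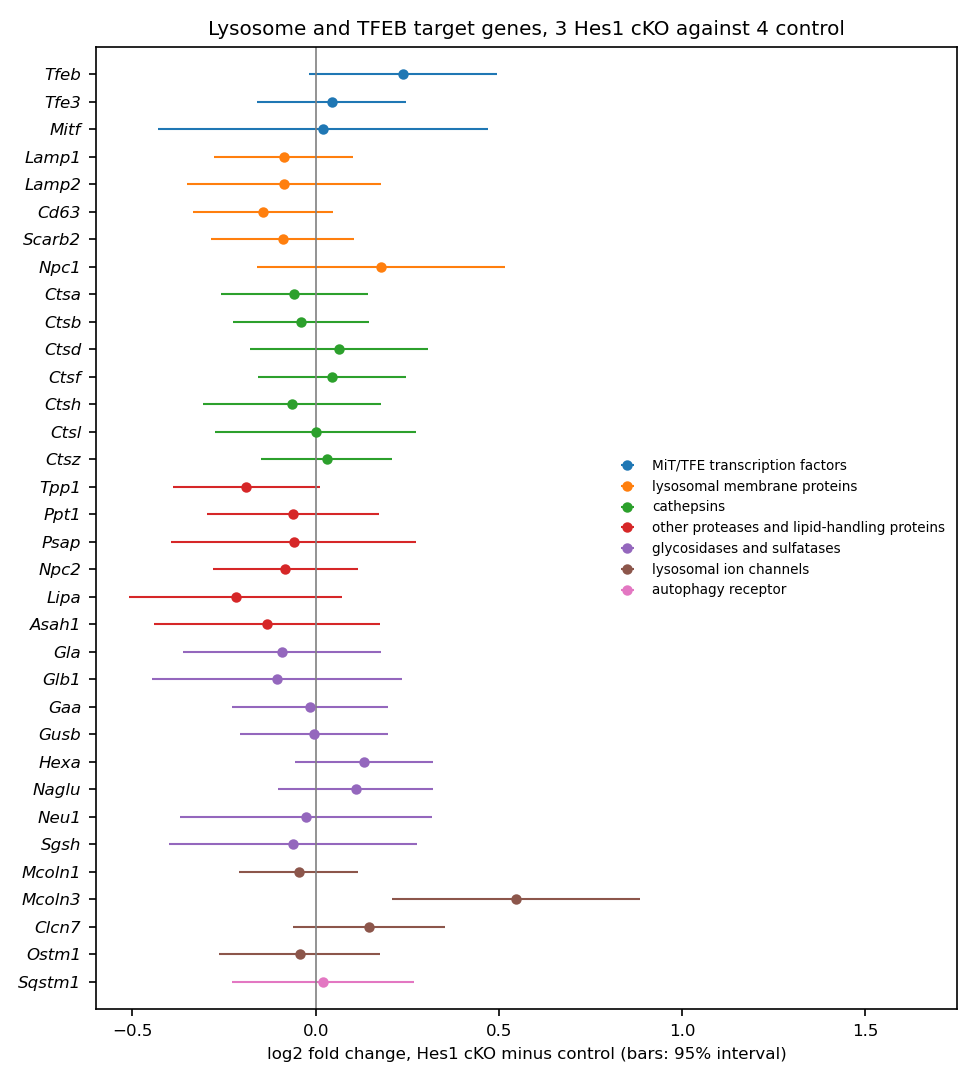
Fitted log2 fold change (Hes1 cKO minus control, x axis) of each of the 34 genes, with bars for the 95% interval and colours for the role of the gene. The interval of Mcoln3, 0.21 to 0.89, is the one that lies wholly to one side of 0.

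The groups did not overlap for 3 of the 34 genes, 8.82%, beside 7.01% of all tested genes (3.71% with every Hes1 cKO library higher and 3.29% with every one lower). Mcoln3 was higher, and Cd63 and Gla were lower, in every Hes1 cKO library than in any control library.

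The MiT/TFE factors come first, since they act upstream of the others. Tfeb (ENSMUSG00000023990, GRCm38 chr17:47737030-47792419, + strand) was at 89.0, 98.9 and 71.6 CPM in Hes1 cKO 1, 2 and 3, while control 1 to 4 stood at 79.7, 67.5, 73.3 and 73.0 CPM. Hes1 cKO 1 and 2 were above every control library, while Hes1 cKO 3 was inside the control range. The log2 fold change was 0.24 (SE 0.11), with an edgeR adjusted p of 0.873 and an exact two-sided permutation p of 0.2. Without Hes1 cKO 2 the fold change was 0.13, and without Hes1 cKO 3 it was 0.36.

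Tfe3 (chrX:7762560-7775202), which shares much of its target set with Tfeb, was at 45.2, 42.3 and 38.3 CPM in the Hes1 cKO libraries and at 42.6, 38.1, 42.9 and 39.1 CPM in the control libraries. The groups overlapped throughout, and the log2 fold change was 0.04 (SE 0.09; edgeR's adjusted p = 0.988; exact permutation p = 0.657). Mitf (chr6:97807052-98021349), best known from pigment cells, was at 24.7, 27.4 and 25.9 CPM in the Hes1 cKO libraries and at 15.7, 29.4, 30.0 and 27.3 CPM in the control libraries. Control 1 was far below the other control libraries, and the Hes1 cKO libraries lay within the control range. Its log2 fold change of 0.02 (SE 0.20) was the least precise of the set (exact permutation p = 0.971), and without control 1 it was -0.15. Tfeb was the most abundant of the 3 factors per length, at 13.9 CPM per kb of exon, against 4.45 for Tfe3 and 4.16 for Mitf.

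Of the 5 lysosomal membrane proteins, 4 were fitted lower and 1 higher in Hes1 cKO. Their median log2 fold change was -0.09, and none passed the test. Cd63 (chr10:128900989-128912822), a tetraspanin of late endosomes and lysosomes, was at 1110, 1095 and 1141 CPM in the Hes1 cKO libraries and at 1268, 1221, 1292 and 1147 CPM in the control libraries. Hes1 cKO 3 and control 4 were nearly level, so the groups were parted by a gap of a few CPM. Cd63 stood at a log2 fold change of -0.14 (SE 0.08; edgeR's adjusted p = 0.934; exact permutation p = 0.0571).

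The Lamp proteins, which make up much of the lysosomal membrane, had log2 fold changes of -0.09 (SE 0.08) for Lamp1 and -0.09 (SE 0.12) for Lamp2. Lamp1 ran from 742 to 794 CPM in Hes1 cKO and from 762 to 867 CPM in control. Lamp2 ran from 581 to 690 CPM in Hes1 cKO and from 642 to 827 CPM in control, where control 2 was the high library, and without it the fold change was 0.008. Scarb2, the receptor that carries glucocerebrosidase to the lysosome, was at -0.09 (SE 0.09).

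Npc1 (chr18:12189692-12236400), which moves cholesterol out of the lysosome, was at 24.0, 26.0 and 19.8 CPM in the Hes1 cKO libraries and at 25.4, 21.0, 18.3 and 17.6 CPM in the control libraries. Control 1 lay among the Hes1 cKO libraries, and Hes1 cKO 3 among the control libraries. Npc1 stood at a log2 fold change of 0.18 (SE 0.15; edgeR's adjusted p = 0.959; exact permutation p = 0.314). It was 0.090 without Hes1 cKO 2 and 0.29 without control 1. Npc1 was also the gene of the set with the lowest level per length, 1.92 CPM per kb.

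The 7 cathepsins, the main lysosomal proteases, were the role with the narrowest spread of differences among those with 4 or more genes, from -0.06 (Ctsh) to 0.06 (Ctsd), with a median of 0.0005. Ctsb, a cysteine protease, stood at a log2 fold change of -0.04 (SE 0.08), with 800 to 893 CPM in Hes1 cKO and 845 to 902 CPM in control. Ctsd, the aspartic protease, was at 249 to 307 CPM against 240 to 299 CPM. Ctsl stood at 0.0005 (SE 0.12), with 448 to 495 CPM inside the wider control range of 390 to 560 CPM. The groups thus overlapped for each of these abundant proteases. The log2 fold changes of the others were -0.06 for Ctsa, the carboxypeptidase that also protects the glycosidases Glb1 and Neu1, 0.05 for Ctsf and 0.03 for Ctsz, with SEs of 0.09, 0.09 and 0.08.

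All 6 of the other proteases and lipid-handling proteins were fitted lower in Hes1 cKO, with log2 fold changes from -0.22 to -0.06 and a median of -0.11, and none passed the test. For Psap the sign rested on single libraries: it was at 0.027 without Hes1 cKO 3 and at 0.040 without control 1. Tpp1, Ppt1, Npc2, Lipa and Asah1 stayed lower in Hes1 cKO whichever library was left out. Tpp1 (chr7:105744811-105752235), a tripeptidyl peptidase, was at 156, 143 and 169 CPM in the Hes1 cKO libraries and at 184, 162, 182 and 184 CPM in the control libraries. The groups overlapped only through control 2, which was lower than Hes1 cKO 3. For Tpp1 the log2 fold change was -0.19 (SE 0.09; edgeR's adjusted p = 0.862; exact permutation p = 0.0857).

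Lipa (chr19:34492318-34527474), the acid lipase that frees cholesterol from its esters, was at 161, 175 and 206 CPM in the Hes1 cKO libraries and at 194, 205, 187 and 255 CPM in the control libraries. Hes1 cKO 3 lay inside the control range and the other Hes1 cKO libraries below it. The log2 fold change of -0.22 (SE 0.13) was the lowest of the set (edgeR adjusted p = 0.937; exact permutation p = 0.257), and it was -0.11 without control 4.

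Psap (chr10:60277627-60302597), the precursor of the saposins that present lipids to hydrolases, was the most abundant of the 34 per length, at 633 CPM per kb. It was at 1866, 1739 and 1482 CPM in the Hes1 cKO libraries and at 2125, 1916, 1586 and 1445 CPM in the control libraries. Both groups spread widely and overlapped, and the log2 fold change was -0.06 (SE 0.15; edgeR's adjusted p = 0.991; exact permutation p = 0.743). Asah1, the acid ceramidase, stood at -0.13 (SE 0.14), Npc2, the soluble partner of Npc1, at -0.08 (SE 0.09), and Ppt1, which removes fatty acids from proteins, at -0.06 (SE 0.10). Without Hes1 cKO 3, Asah1 was at -0.011 and Ppt1 at -0.0022, and without Hes1 cKO 1 Asah1 was at -0.21.

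**Figure D2:**
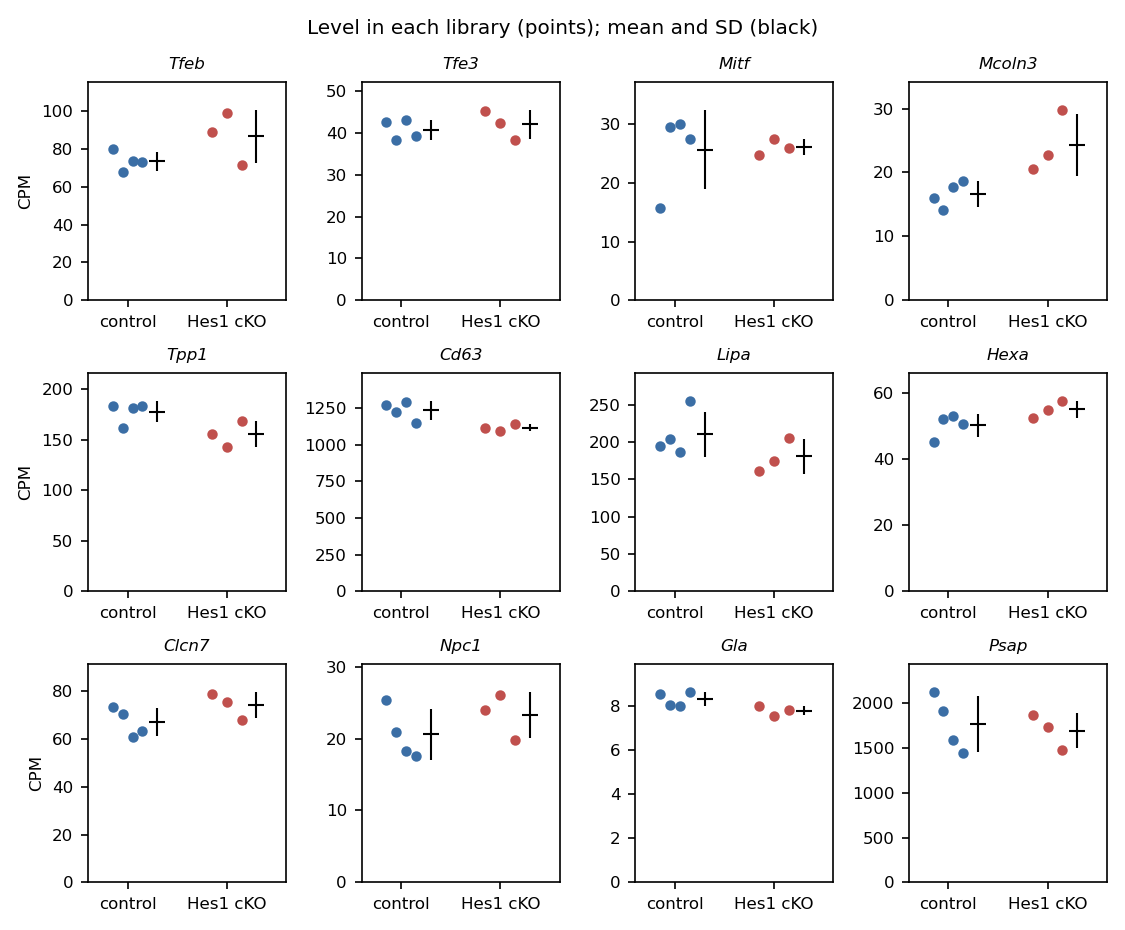
Level in CPM (y axis, from 0) of 12 genes in each control and Hes1 cKO library (points), with the mean and SD of the group in black. Mcoln3 is parted between the groups by a visible gap, while the Hes1 cKO points of Tfeb, Npc1 and Psap fall on both sides of control points.

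Of the 8 glycosidases and sulfatases, which take glycans and glycolipids apart, 2 were fitted higher and 6 lower. Their median was -0.02 on the log2 scale, and none passed the test. Hexa (chr9:59539540-59565109), the alpha subunit of hexosaminidase, was at 52.6, 55.1 and 57.7 CPM in the Hes1 cKO libraries and at 45.1, 52.4, 53.0 and 50.7 CPM in the control libraries. Hes1 cKO 2 and 3 were above all controls, and Hes1 cKO 1 was within their range. Hexa stood at a log2 fold change of 0.13 (SE 0.08; edgeR's adjusted p = 0.938; exact permutation p = 0.143).

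Gla (chrX:134588149-134601125), the alpha-galactosidase that is deficient in Fabry disease, was at 7.99, 7.57 and 7.82 CPM in the Hes1 cKO libraries and at 8.55, 8.05, 8.01 and 8.62 CPM in the control libraries. The groups did not overlap, but Hes1 cKO 1 and control 3 were almost level. The difference for Gla was -0.09 on the log2 scale (SE 0.12; edgeR adjusted p = 0.975; exact permutation p = 0.114). Its level per length, 2.48 CPM per kb, was the second lowest of the set.

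The remaining enzymes of this role had log2 fold changes of 0.11 for Naglu (SE 0.09), which removes N-acetylglucosamine from heparan sulfate, and -0.06 for Sgsh (SE 0.15), which removes sulfate from the same glycan. Glb1, the beta-galactosidase, stood at -0.11 (SE 0.15), with 123 to 132 CPM in Hes1 cKO and 109 to 181 CPM in control, where control 1 was the high library. Without control 1 it stood at 0.05. Gaa, the acid alpha-glucosidase, Gusb, the beta-glucuronidase, and Neu1, the sialidase, lay within 0.1 of 0, at -0.02 (SE 0.09), -0.0045 (SE 0.09) and -0.03 (SE 0.15).

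Among the 4 ion channel genes, Mcoln3 (ENSMUSG00000036853, GRCm38 chr3:146117450-146141806, + strand) had the largest difference and the smallest p of the whole set. It was at 20.5, 22.7 and 29.8 CPM in Hes1 cKO 1, 2 and 3, from 388, 459 and 506 counts. Control 1 to 4 stood at 16.0, 14.1, 17.8 and 18.6 CPM, from 279, 267, 324 and 341 counts. Every Hes1 cKO library was above every control library, and Hes1 cKO 3 was well above the other members of its group. The fold was 1.46 (95% interval 1.16 to 1.85), a log2 fold change of 0.55 (SE 0.15). The edgeR adjusted p over all tested genes was 0.497, from an unadjusted p of 0.00502, and the exact two-sided permutation p was 0.0286, the smallest that 35 splits of 7 libraries can give.

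With the log2 CPM of Xist as a covariate in the same edgeR fit, the log2 fold change of Mcoln3 was 0.60 and its adjusted p 0.0469, so that it was called there. That fit called 0.423% of all tested genes (0.378% higher). In the other settings that kept all libraries, the adjusted p of Mcoln3 ran from 0.114 (DESeq2) to 0.513 (limma-voom). When each library was left out in turn, it ran from 0.425 to 0.925, and without Hes1 cKO 3 the log2 fold change was 0.38. Xist moved with the level of Mcoln3: within Hes1 cKO the library with high Xist was highest, at 29.8 CPM, and within control the 2 libraries with high Xist were highest, at 17.8 and 18.6 CPM. The summed intercalated cell markers also differed between the groups in the direction of Mcoln3, at 1117 to 1243 against 392 to 498 CPM. Within Hes1 cKO their order was opposite to that of Mcoln3, at 1243, 1230 and 1117 CPM in Hes1 cKO 1, 2 and 3. Within control they were highest in control 3 and 4, at 498 and 482 CPM, as was Mcoln3. The part of these cells in the level of Mcoln3 was not tested.

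For the other channel genes the groups overlapped. Mcoln1, the calcium channel that activates TFEB through calcineurin and whose promoter holds 2 of the printed matches, was at 59.5, 59.7 and 58.1 CPM in the Hes1 cKO libraries and at 59.3, 64.4, 58.4 and 62.0 CPM in the control libraries. Its log2 fold change of -0.05 (SE 0.07) had the smallest error of the set, with a 95% interval of -0.21 to 0.12. Mcoln2, the third gene of this family and not one of the 34, lies next to Mcoln3 on chromosome 3. It was at 1.85, 3.07 and 5.53 CPM in the Hes1 cKO libraries and at 3.04, 2.65, 6.59 and 6.44 CPM in the control libraries, with a log2 fold change of -0.43 (SE 0.44).

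Clcn7 (chr17:25133391-25162104), the chloride and proton exchanger of the lysosome, was at 78.6, 75.5 and 67.9 CPM in the Hes1 cKO libraries and at 73.1, 70.5, 60.7 and 63.4 CPM in the control libraries. Hes1 cKO 1 and 2 were above all controls and Hes1 cKO 3 was among them. The log2 fold change was 0.15 (SE 0.09; edgeR's adjusted p = 0.938; exact permutation p = 0.2). Ostm1, its obligate partner subunit, was at -0.04 (SE 0.10). Sqstm1, the p62 receptor that carries ubiquitinated cargo into autophagosomes, ran from 546 to 615 CPM in Hes1 cKO and from 494 to 662 CPM in control, with a log2 fold change of 0.02 (SE 0.11).

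The 10 genes with TCACGTG in the promoter had a median log2 fold change of -0.05, from -0.11 (Glb1) to 0.15 (Clcn7). The 20 genes of the set whose promoters lack it had a median of -0.02, from -0.22 (Lipa) to 0.55 (Mcoln3). Both Lamp1, with 4 matches in the printed stretch, and Mcoln1, with 2, lay within 0.1 of 0.

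Levels differed far more between the genes than between the groups. Length here is the union of all annotated exons of a gene, 2.74 kb for Psap, 3.68 kb for Cd63 and 11.3 kb for Npc1. That union can be longer than the transcripts present in the kidney, so the order could change with another measure of length. The plot of level per length runs from 633 CPM per kb for Psap and 321 for Cd63 through 296 for Lamp1 and 172 for Sqstm1 down to 2.48 for Gla and 1.92 for Npc1. Cd63 was at 303 ± 6.36 CPM per kb (SD, n = 3) in Hes1 cKO and at 335 ± 17.3 (SD, n = 4) in control, and Lamp1 was at 286 ± 9.69 and 304 ± 17.1. Over all 7 libraries the ranges of these neighbours in the order overlapped, while Psap stood apart above both, at 618 ± 71.4 and 644 ± 113 CPM per kb. Of the 33 pairs of neighbours in the order, 24 had ranges that overlapped, and among the 9 that did not were Lamp1 over Sqstm1, Ppt1 over Tfeb, and Gla over Npc1. In all, the 34 genes made up 0.892% to 0.976% of all counts, and their summed level was 8909 to 9344 CPM in Hes1 cKO and 8857 to 9993 CPM in control.

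**Figure D3:**
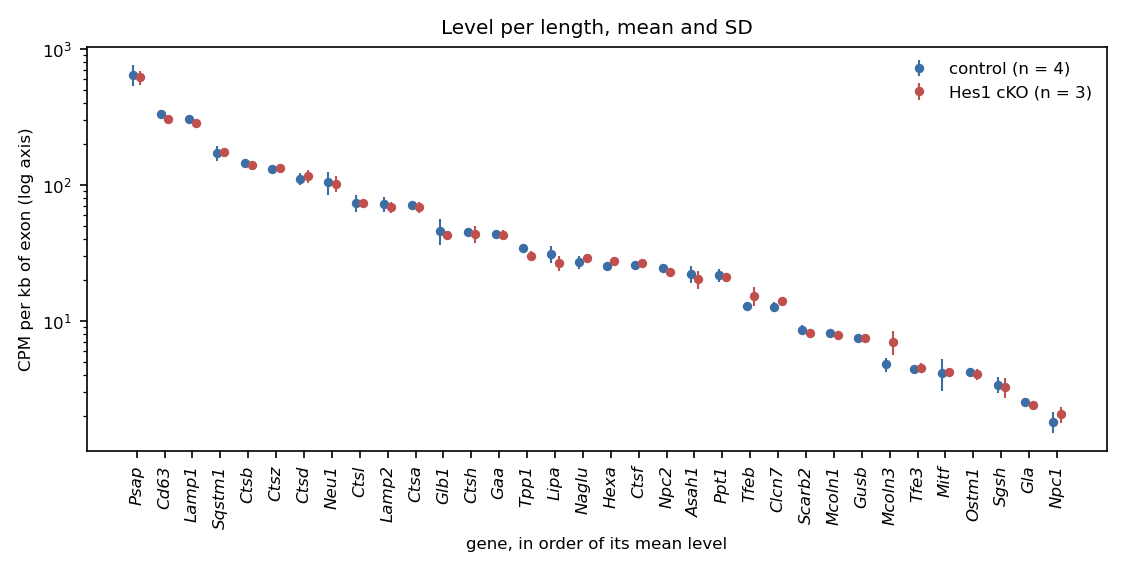
Mean level per length (CPM per kb of exon, log axis) of the 34 genes in order of level, with the SD over 4 control (blue) and 3 Hes1 cKO (red) libraries. The genes span from 1.92 to 633 CPM per kb, and the red and blue points of a gene lie close together beside this span.

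The libraries of each group differed among themselves in these genes. The median deviation of the 34 genes from the control mean, on the log2(CPM + 1) scale, was -0.0017, 0.00094 and -0.066 in Hes1 cKO 1, 2 and 3, while for control 1 to 4 it was 0.046, 0.032, -0.0017 and -0.058. Hes1 cKO 3 and control 4 were thus the low libraries, and control 1 and 2 the high ones. The 3 libraries with high Xist lay apart from the others in both groups, in the same direction, for 13 of the 34 genes, 38.2%, beside 18.7% of all tested genes. Mcoln3 and Ctsf were higher in those libraries, and Psap, Neu1, Sqstm1, Ctsz, Npc1, Gusb, Ppt1, Asah1, Clcn7, Ostm1 and Glb1 were lower. Both sexes are labelled in both groups, but no label ties a column to a sex. The libraries were parted here by their Xist level alone, so this is a description with no test. Proximal tubule markers, from the segment richest in lysosomes, summed to 10703 to 11862 CPM in Hes1 cKO and to 11163 to 13796 CPM in control, with 0 of 8 called. Of the 8, 7 were fitted lower and 1 higher in Hes1 cKO. Their median log2 fold change was -0.16, beside -0.0064 over all tested genes. The part of these cells in the level of the 34 genes was not tested.

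**Figure D4:**
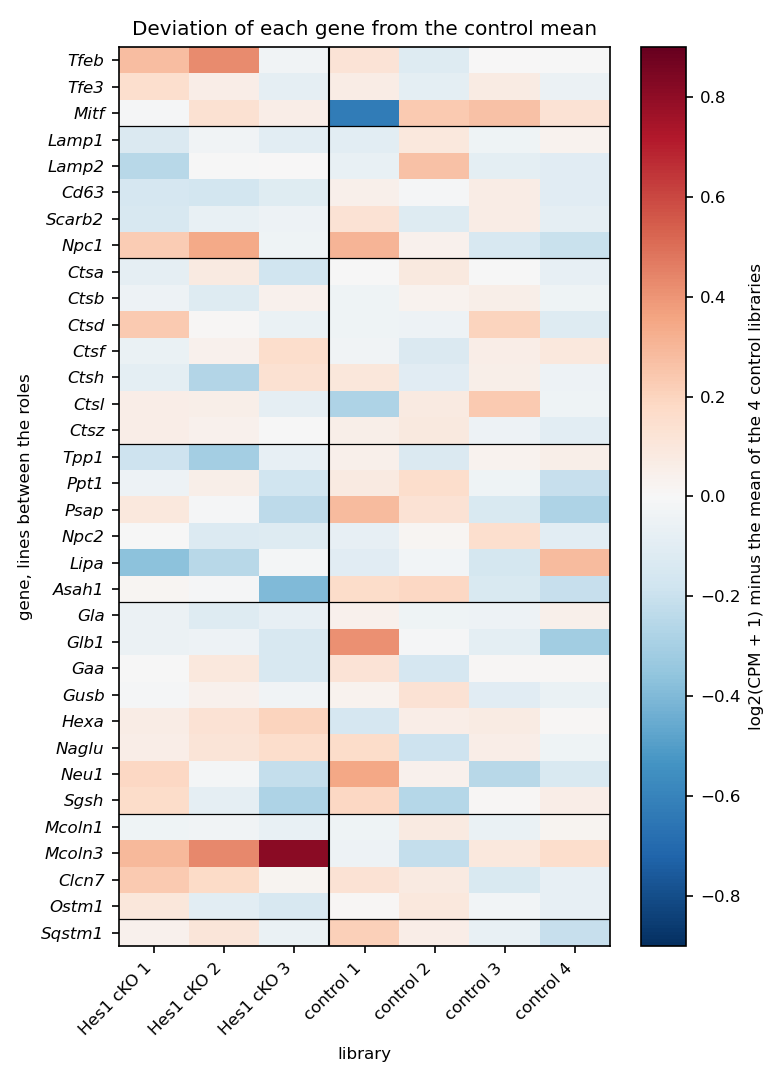
Deviation of each of the 34 genes (rows, by role) from the mean of the 4 control libraries in each library (columns), as log2(CPM + 1), red above and blue below. Mcoln3 is red in all 3 Hes1 cKO columns, and no role is red or blue throughout them.

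Further genes of the lysosome and of autophagy were read from lists outside the 34. Of 28 further lysosomal hydrolases none was called, with 7 fitted higher, 21 lower and a median of -0.06. Plbd2, a phospholipase B-like protein of the lysosome, was at 157 ± 11.4 CPM (SD, n = 3) in the Hes1 cKO libraries and 130 ± 5.46 CPM (SD, n = 4) in the control libraries, which is 0.28 on the log2 scale (SE 0.08; edgeR adjusted p = 0.527). Every Hes1 cKO library was above every control library for this gene, as for 3.71% of all tested genes.

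Of 16 further membrane proteins none was called (median 0.03), and Tpcn1, a cation channel of endosomes and lysosomes, was at 381 ± 10.2 against 332 ± 24.1 CPM, which is 0.20 on the log2 scale (SE 0.08; edgeR adjusted p = 0.820). Slc17a5, which exports sialic acid, stood at 0.16 (SE 0.14). Of 24 autophagy genes, 23 were tested (Rubcn has no row in the table) and none was called, with a median of 0.03. The smallest p values among them belonged to Atg7, the enzyme that activates ubiquitin-like autophagy proteins, at 0.19 (SE 0.09), and Calcoco1 at 0.13 (SE 0.09). Like Plbd2, Tpcn1 and Atg7 were higher in every Hes1 cKO library than in any control library. Of 10 genes that sort enzymes to the lysosome none was called (median 0.03), with Gga1 at 0.15 (SE 0.10) and Sumf1, which activates sulfatases, at -0.09 (SE 0.08).

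A list of 13 genes around the control of TFEB, which also held Tfec, Ppargc1a and Gpnmb, had a median log2 fold change of 0.04, and none was called. Rragd, a Rag GTPase that is itself a TFEB target, was at 101, 120 and 115 CPM in the Hes1 cKO libraries and at 62.0, 106, 106 and 89.6 CPM in the control libraries, which is 0.30 on the log2 scale (SE 0.17; edgeR adjusted p = 0.928). Control 1 was well below the other controls, and Hes1 cKO 1 was within the control range. Fnip1, a partner of folliculin, stood at 0.17 (SE 0.11). Of the membrane, autophagy, sorting and TFEB control lists, 1 gene, Tpcn1, had an unadjusted edgeR p under 0.05.

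The V-ATPase subunits, kept apart from the set, gave the only calls among the lysosomal lists. Of the 19, 4 were called higher and none lower, beside 0.32% and 0.0192% of all tested genes. These were Atp6v1c2 (log2 fold change 1.36, SE 0.13, edgeR adjusted p = 0.00316), Atp6v0d2 (1.25, SE 0.16, adjusted p = 0.0113), Atp6v1g3 (1.02, SE 0.12, adjusted p = 0.00652) and Atp6v1b1 (0.73, SE 0.12, adjusted p = 0.0369), subunit forms known from intercalated cells. Atp6v1b1 was at 220, 232 and 230 CPM in the Hes1 cKO libraries and at 108, 146, 147 and 147 CPM in the control libraries. The median of the 19 subunits was 0.10, and the other 15 did not pass the test. For 5 of the 19 all Hes1 cKO libraries were above all control libraries, beside 3.71% of all tested genes. These 5 were the 4 called and Atp6v0c. Atp6v0c was at 228, 202 and 202 CPM in the Hes1 cKO libraries and at 144, 194, 123 and 112 CPM in the control libraries. The list was read with the intercalated cell result of these libraries known, so its direction is no independent evidence.

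**Figure D5:**
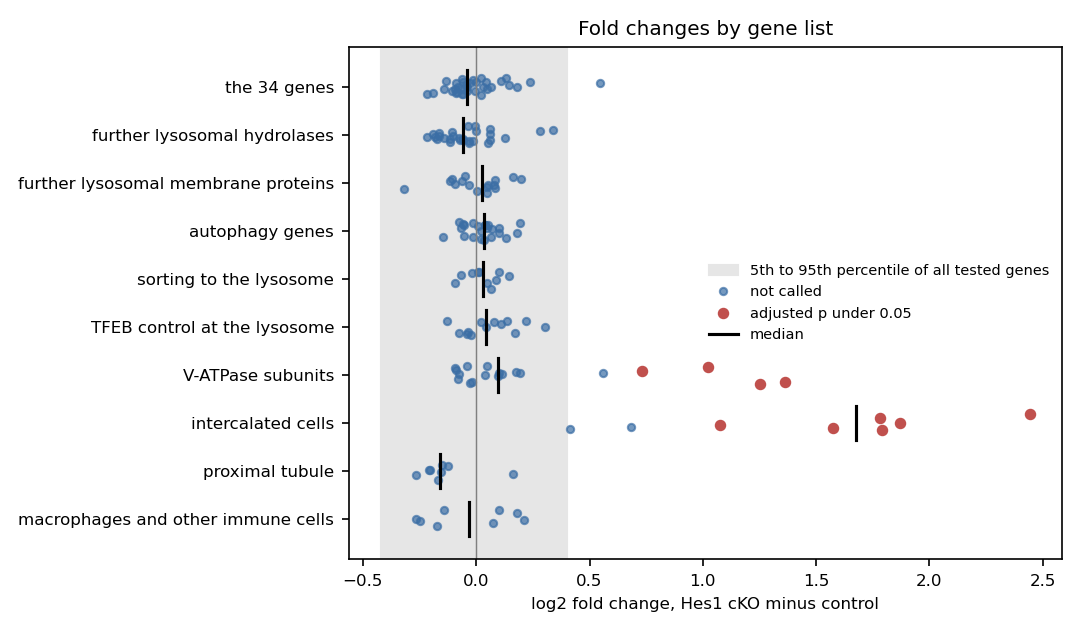
Fitted log2 fold change (x axis) of each gene of the 34, of the further lysosomal lists and of 3 marker lists (points; red where the adjusted p is under 0.05), with the median of each list as a black line and the 5th to 95th percentile of all tested genes in grey. The 34 genes lie close to 0 with a median of -0.042, while 4 V-ATPase subunits and 6 intercalated cell markers are red on the right.

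Macrophages, another cell type with many lysosomes, were looked for with 10 markers, of which 8 were tested and none was called. Their summed level was 100 to 138 CPM in Hes1 cKO and 106 to 135 CPM in control. Itgam was at most 0.477 CPM in any library and was not tested, and Adgre1 has no row in the table.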

How the data were processed

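Whole-kidney RNA libraries of 3 Hes1 cKO and 4 control mice were compared. The authors deposited whole-number read counts per gene with no normalization, in a table whose column names show mutant or wild type. Columns do not match single titled samples, of which the titles give 7 Hes1 cKO and 9 control. A further 9 columns of per-sample values, with codes that show no genotype, were not used. The submitters' processing notes name STAR, DESeq2, FastQC and the build mm10 (GRCm38). Not given in the sources used here were the program that counted reads, its strand setting and its annotation, so reads of overlapping or antisense genes may be shared.

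Genes were kept by filterByExpr (minimum count 10) and tested on the deposited counts by edgeR's quasi-likelihood test (version 4.0.16, R 4.3.3; TMM scaling, no covariate), with Benjamini-Hochberg adjustment over 15615 genes and a call at an adjusted p under 0.05. The script was tested on simulated data. Single genes also had an exact two-sided permutation test of the difference in mean log2(CPM + 1) over 35 splits (scipy 1.17.1). Levels per length use the union of GENCODE M21 exons, which also gave the gene coordinates. Alternatives were DESeq2 (1.42.0) as a test and for size factors, limma-voom (limma 3.58.1), total counts as scaling, no filter, a mean CPM of at least 1, Xist as a covariate, and leaving out each library. Pairs of libraries within a group differed by more than counting noise (chi-square over its degrees of freedom 11.9 to 41.0), and none was treated as a repeat.

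The genes and lists were chosen with earlier results of these data known. Values in every library are given for Tfeb, Tfe3 and Mitf, for called genes of the set, for the 8 with the smallest p and for the 2 highest and 2 lowest per length; of each further list, called genes and the 2 smallest p are named. A gene of the hydrolase list that this rule names is not reported here. Mcoln1, Mcoln2, Atp6v0c and the ranges given for other genes were added after their values were seen. Promoters came from RefSeq GRCm38.p6, where 30 of the 34 genes matched.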

Additional observations from a re-analysis of the deposited data

Results flagged for a closer look

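In the 4 control libraries, each of the 34 genes and Hes1 was searched for a library far from the other 3, by its gap to the nearest library as a share of the range of the group. A gap above Dixon's 95% critical value for 4 samples was found for 2 of the 35 genes, and chance gives about 1 in 20. Lamp2 was at 827 CPM in control 2 against 642 to 658 CPM in the other control libraries, a share of 0.910. Tpp1 was at 162 CPM in control 2 against 182 to 184 CPM in the others, a share of 0.902. Both gaps are in the same library, in opposite directions, and their cause was not tested.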

How the results depend on the processing

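No member of the set was called under any alternative except Mcoln3 with the Xist covariate (1 gene). The median of the 34 stayed between -0.051 and -0.024 when all libraries were kept, and ran from -0.049 to 0.0089 when 1 was left out, the highest value being that without Hes1 cKO 3. Over all genes, 130 were called by DESeq2 and 102 with no filter, and 25 to 47 with 1 library left out, of which 25 without Hes1 cKO 2 and 27 without Hes1 cKO 1. Of 476 alternative values of single genes, 443 kept direction and call, 32 changed sign and 1 gained a call. The sign changes were in 16 genes, all within 0.11 of 0 in the fit reported, and their cause was not tested. With all libraries kept these were Gaa (0.00080) and Gusb (0.012) with total counts, Ctsl (-0.0023) with no filter and Sqstm1 (-0.011) with Xist. With 1 library left out, log2 fold changes ran for Tfe3 from -0.015 to 0.10, Mitf from -0.15 to 0.11, Lamp2 from -0.13 to 0.0080, Ctsd from -0.033 to 0.14, Ctsf from -0.012 to 0.094, Ctsh from -0.18 to 0.028, Ctsl from -0.085 to 0.085, Ctsz from -0.00061 to 0.061, Psap from -0.15 to 0.040, Glb1 from -0.20 to 0.051, Gaa from -0.074 to 0.045, Gusb from -0.038 to 0.043, Neu1 from -0.14 to 0.10, Sgsh from -0.20 to 0.043, Ostm1 from -0.13 to 0.0069 and Sqstm1 from -0.044 to 0.097. No paired analysis was possible because the columns carry no replicate number of the labels. With 3 and 4 libraries, small differences could not be detected. The 95% intervals are not adjusted for the number of genes, so they give no limit of detection. The interval of Mcoln3, 0.21 to 0.89, excluded 0, yet its edgeR adjusted p was 0.497 in the fit reported.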
